A study of Mus musculus with 13 samples.

Results

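The cytosolic ribosomal protein genes are described here in RNA-seq libraries of mouse oocytes from a time course of gamma irradiation. They were chosen by name: protein-coding genes whose symbol is Rps or Rpl followed by digits, at most 1 letter and at most 1 further digit, together with Rplp0, Rplp1, Rplp2 and Rpsa. Ribosomal S6 kinases and named pseudogenes were left out by this rule, which used no measured value. It gave 83 genes, 32 of the small (40S) and 51 of the large (60S) subunit, of 49509 genes in the files, 21817 of them protein-coding. Of the 83, 6 carry the names of paralogues of another member (Rpl3l, Rpl7l1, Rpl10l, Rpl22l1, Rpl39l and Rps27l), leaving 77.

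The study followed how the transcriptome of resting oocytes develops after DNA damage at a high and a low dose. Ovaries of CD-1 mice at postnatal day 5 were cultured overnight and irradiated with 0.5 Gy or 0.2 Gy from a caesium-137 source. Oocytes were then freed with trypsin and enriched by centrifugation at 5 times (0, 1, 2.5, 4 or 6 h), with 4 ovaries pooled for each library. The 13 libraries comprised 8 of 0.5 Gy (duplicates of 0, 1 and 4 h, single libraries of 2.5 and 6 h) and 5 of 0.2 Gy, with 1 at each time. The labels name no genotype. They call the 0 h libraries 0 h after irradiation, whereas the published text describes 0 h as taken before it, and these libraries served as the baseline. Each library also carries a label of generation. At 0.5 Gy the first of each duplicate is of the first generation, and the second of each duplicate and the 2.5 and 6 h libraries are of the second. All 0.2 Gy libraries belong to the third, so dose and generation cannot be told apart. Generations are used here as labelled, but a published list of mapped reads places the duplicates of 1 h, and those of 4 h, in the opposite generation, while those of 0 h match. The generation of these 4 libraries is therefore uncertain, and with it every difference between the first and second generation or within either.

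Every ribosome carries a single copy of nearly every ribosomal protein, so a cell needs these proteins in similar amounts. Their mRNAs are short and abundant, and many begin with a 5′ terminal oligopyrimidine (TOP) tract, an uninterrupted run of C and T through which mTORC1 and LARP1 control their translation together. Oocytes make and store ribosomes while they grow, and the 2 large-subunit proteins of the 5S particle, Rpl5 and Rpl11, bind MDM2 when ribosome assembly is disturbed. These genes also have one of the largest sets of processed pseudogenes in mammalian genomes, reverse-transcribed copies with no introns that keep most of the coding sequence.

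Those copies come first here because reads of 30 bases often cannot separate them from their source. The coding sequence of Rps27, a small-subunit protein with a zinc finger, is shown with one of its processed pseudogenes and with its protein-coding paralogue, since this family was the clearest case. Rps27 lies at chr3:90212522-90213651 on the minus strand of GRCm38, and its 255 coding bases are joined over its exons. The pseudogene Gm17241 lies in 1 piece at chr15:99706562-99706813 on the minus strand. Rps27l, a p53 target in other cells, lies at chr9:66946086-66949516 on the plus strand. Capitals mark the bases that differ from Rps27, aligned without gaps from the start codon.
Rps27: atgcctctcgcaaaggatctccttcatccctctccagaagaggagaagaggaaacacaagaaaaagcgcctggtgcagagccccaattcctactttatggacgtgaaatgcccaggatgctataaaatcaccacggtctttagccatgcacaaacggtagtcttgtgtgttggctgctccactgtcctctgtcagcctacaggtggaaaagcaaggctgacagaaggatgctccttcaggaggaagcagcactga
Gm17241: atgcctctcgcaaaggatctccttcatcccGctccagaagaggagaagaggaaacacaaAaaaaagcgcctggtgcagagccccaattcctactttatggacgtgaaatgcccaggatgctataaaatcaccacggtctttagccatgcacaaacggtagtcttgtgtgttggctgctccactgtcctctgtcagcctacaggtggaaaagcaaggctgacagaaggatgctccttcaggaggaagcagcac
Rps27l: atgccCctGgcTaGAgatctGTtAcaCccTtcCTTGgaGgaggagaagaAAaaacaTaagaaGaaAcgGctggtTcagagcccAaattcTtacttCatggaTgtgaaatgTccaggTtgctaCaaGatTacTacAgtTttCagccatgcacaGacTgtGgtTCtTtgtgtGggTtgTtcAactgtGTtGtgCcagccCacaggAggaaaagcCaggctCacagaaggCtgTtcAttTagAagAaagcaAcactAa
Gm17241 differs from Rps27 at 2 of 252 bases, and 164 of its 223 windows of 30 bases are letter for letter the same as in Rps27. Rps27l differs at 61 of 255 bases and shares none of 226 windows. A further gene, Rps27rt at chr9:114982366-114982739, which is annotated as protein-coding and does not match the symbol rule, has the coding sequence of Rps27 with 0 differences. Reads of the Rps27l coding sequence can therefore be told from those of Rps27, whereas every 30-base window of the Rps27 coding sequence also occurs in Rps27rt. Of all 30-base sequences of the Rps27l transcripts, 14.9% occur in other genes, so not every read of Rps27l can be placed.

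Rps2, a small-subunit protein near the mRNA entry channel, shows the same on a longer gene. It lies at chr17:24718116-24721929 on the plus strand, and its processed pseudogene Rps2-ps13 lies at chrX:52898588-52899469 on the plus strand. They differ at 7 of 882 coding bases and share 670 of 853 windows of 30 bases. The first 120 coding bases are shown, with the 2 differences among them in capitals.
Rps2: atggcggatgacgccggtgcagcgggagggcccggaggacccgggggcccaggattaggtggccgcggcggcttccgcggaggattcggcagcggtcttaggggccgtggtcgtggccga
Rps2-ps13: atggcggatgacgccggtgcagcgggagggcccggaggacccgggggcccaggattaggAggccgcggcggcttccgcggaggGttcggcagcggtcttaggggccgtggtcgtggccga

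Transcript starts were examined for the C and T run of a TOP mRNA. In RefSeq's promoter windows of GRCm38.p6, 63 of the 83 genes were matched, with 75 annotated starts. A run of 8 or more C or T letters on the transcribed strand that takes in the annotated first base was found at 17 of 75 starts, or 22.7%, against 3.86% of the 32851 starts of all genes. For 69 mitochondrial ribosomal protein genes the share was 1.33% of 75 starts. Within the 31 bases around the start, which allows for an annotation that is a few bases off, such a run was found at 33.3% of the members' starts and 11.7% of all starts. A match is a description of these letters and not a site of control. The windows of 30 bases below, in which the annotated start is the 11th base, show a run that takes in that base (Rps27), runs that begin after it (Rpl18, Rpl13a, Rpl22l1 and Rpl39) and none of this length (Rps27l). Capitals mark the longest run.
Rps27: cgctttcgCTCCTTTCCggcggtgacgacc
Rpl18: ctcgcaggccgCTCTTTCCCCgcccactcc
Rpl13a: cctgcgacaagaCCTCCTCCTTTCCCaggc
Rpl22l1: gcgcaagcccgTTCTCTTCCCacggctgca
Rpl39: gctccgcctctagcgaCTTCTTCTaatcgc
Rps27l: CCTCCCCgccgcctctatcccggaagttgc
These windows are chr3:90213629-90213658, chr7:45718061-45718090, chr7:45128726-45128755, chr3:28805498-28805527, chrX:37085203-37085232 and chr9:66946076-66946105 in that order, and those of Rps27, Rpl13a and Rpl39 are on the minus strand.

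The libraries held 15709549 to 30430104 estimated reads. All 12 oocyte markers, among them Zp3, Ddx4 and Gdf9, had reads in every library. Their sum was 3568 to 5007 RPM (reads scaled to library total only). CPM, used below for the members, are counts scaled to library size and adjusted by TMM. The other cells of the ovary were present too. In every library all 11 granulosa cell markers (sum 1716 to 3441 RPM) and all 9 stromal markers (2258 to 3668 RPM) had reads. The same held for all 6 macrophage markers (37.4 to 91.4 RPM) and 6 of 7 red blood cell markers (867 to 5923 RPM). The label oocyte thus stands for an oocyte fraction, and in bulk RNA fewer cells of a type and less RNA per cell cannot be told apart. One library stood apart by the sum of 7 granulocyte markers. That sum was 428.6 RPM in the second-generation 0 h library of 0.5 Gy and 5.61 to 15.0 RPM in the other 12.

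Ribosomal protein genes were among the abundant genes of this fraction, and their copies took up about as many reads as they did. The 83 genes received 2.22% to 3.88% of reads, with a mean of 3.06% ± 0.437 (SD, n = 13). Other genes were counted as near-copies where at least 50% of their 30-base sequences occur in a member. There were 302, of which 289 are annotated as pseudogenes and 10 as protein-coding, and they belong to 69 of the 83 members. Between 40.9% and 51.4% of the reads of members and copies together were assigned to the copies, and with them the share of reads came to 5.87% ± 0.948. Estimated counts of 1 library can be split between a gene and its copy in another way than those of the next. Many results below are therefore given both for the members alone and with copies added. Values not said to be with copies are for the members alone, and not all of these were repeated with copies.

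Much of the apparent order of the members went with the reads on copies. For 48 of 83 members more than 50% of the family's reads lay on copies, for 21 fewer than 1%, and the median was 54.2%. The highest mean shares on copies were those of Rps27 (97.8%), Rpl5 (96.8%), Rpl17 (96.7%), Rpl12 (94.6%) and Rpl21 (92%). Across the 77 genes without the named paralogues, mean TPM (a level per transcript length and library) spanned 690-fold between the highest and the lowest, and 92.7-fold once copies were added. The SD of log2 TPM went from 1.80 to 1.47 and the median level from 340.1 to 1055 TPM. All 8 of the 77 with a mean under 50 TPM had over 80% of family reads on copies. Copies are shorter than spliced mRNAs with untranslated ends, so a copy's TPM weighs more per read than the member's.

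**Figure D1:**
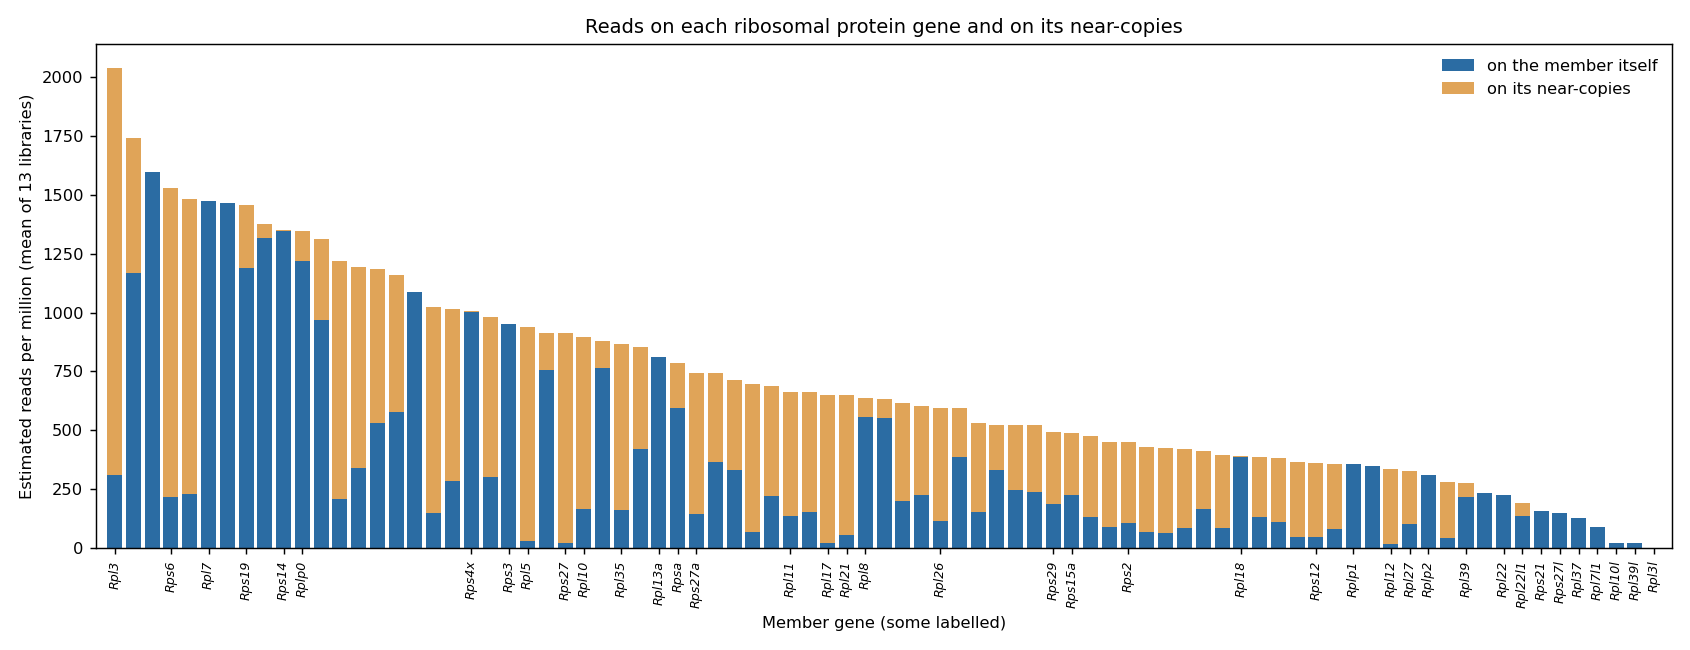
Mean reads on each of the 83 ribosomal protein genes over the 13 libraries (y axis, CPM from 0), as stacked bars of reads on the member itself and on its near-copies, in order of the sum and with some of the genes labelled. Rpl5, Rps27, Rpl17 and Rpl12 consist almost wholly of reads on copies, while Rpl18, Rpl13a and Rps3 have next to none.

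By their own reads, the highest level was that of Rpl13a, a large-subunit protein that is also released to repress translation in inflammation, with a mean of 7423 TPM and a range of 3702 to 10470 over the libraries. Rps19, whose loss causes Diamond-Blackfan anaemia in people, came next at 2574 TPM (1278 to 3041), close to Rps15a at 2525 TPM (2083 to 3076). Rpl18 (1850 TPM, 953 to 2201) and Rps14 (1791 TPM, 1323 to 2219) were lower in mean level, and the ranges of Rps19 and Rps15a overlap, as do those of Rpl18 and Rps14. With copies, which weigh more per read where they are short, the order was another one. Rps19 was first at 15420 TPM (9525 to 26050), Rps27 stood at 9688 TPM (7596 to 14430) and Rpl13a at 7424 TPM (3704 to 10470), so that their ranges overlap. Only 18.0% of the Rps19 family's reads lay on copies, and in CPM its mean went from 1188 alone to 1456 with them. Of all members counted alone, 10 had a mean of at least 1000 TPM. The stalk proteins, which recruit elongation factors, lay close together in mean level: 538 TPM for Rplp0, 530 TPM for Rplp2 and 418 TPM for Rplp1. The mean was 675 TPM for Rpsa, the laminin receptor homologue of the 40S subunit, and 567 TPM for Rps3, which lines the entry channel. Rps6, the substrate of S6 kinase, had 113 TPM alone and 954 TPM with 6 copies, which held 85.3% of its family's reads.

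The paralogues differed from one another far more than did the core genes. Rps27l stood at 688 TPM (477 to 878) with no near-copy, and Rpl22l1 at 786 TPM (478 to 1192), above Rpl22 at 335.5 TPM (291 to 420), so both alternatives were abundant in this fraction. Rpl39l and Rpl10l, which are used mainly in the male germ line, had 17.8 TPM (13.9 to 24.1) and 8.41 TPM (5.74 to 11.6), and Rpl7l1, a nucleolar relative of Rpl7, had 11.8 TPM (8.64 to 13.8). Their partners Rpl39, Rpl10 and Rpl7 had 199, 171 and 1064 TPM alone, and 3314, 1119 and 1065 TPM with copies. Rpl3l, the striated muscle form of Rpl3, was lowest of all at 0.152 TPM, with 0 reads in 1 library and few in the others. Rpl3 itself had 389 TPM alone and 973 TPM with copies. Rps4l was not among the members.

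The first question was whether ribosomal protein mRNAs differed between the 2 generations of the 0.5 Gy experiment, which share dose and times. Their summed share was lower in every library labelled second generation than in any labelled first. The share of reads on the members in the first generation was 3.88%, 3.49% and 3.53% at 0, 1 and 4 h, and 2.22%, 2.81% and 3.04% in the second. With copies these were 7.73%, 7.04% and 7.26% against 4.18%, 5.41% and 5.93%. The 3 libraries of the first generation were the highest of all 13 by either measure, with means of 3.63% ± 0.215 against 2.69% ± 0.425 (SD, n = 3 each) for the members and 7.34% ± 0.351 against 5.17% ± 0.90 with copies. The SDs are smaller than the differences between the means. With the duplicates of 1 and 4 h exchanged, as in the published list, the shares of the generations would overlap, both alone and with copies.

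**Figure D2:**
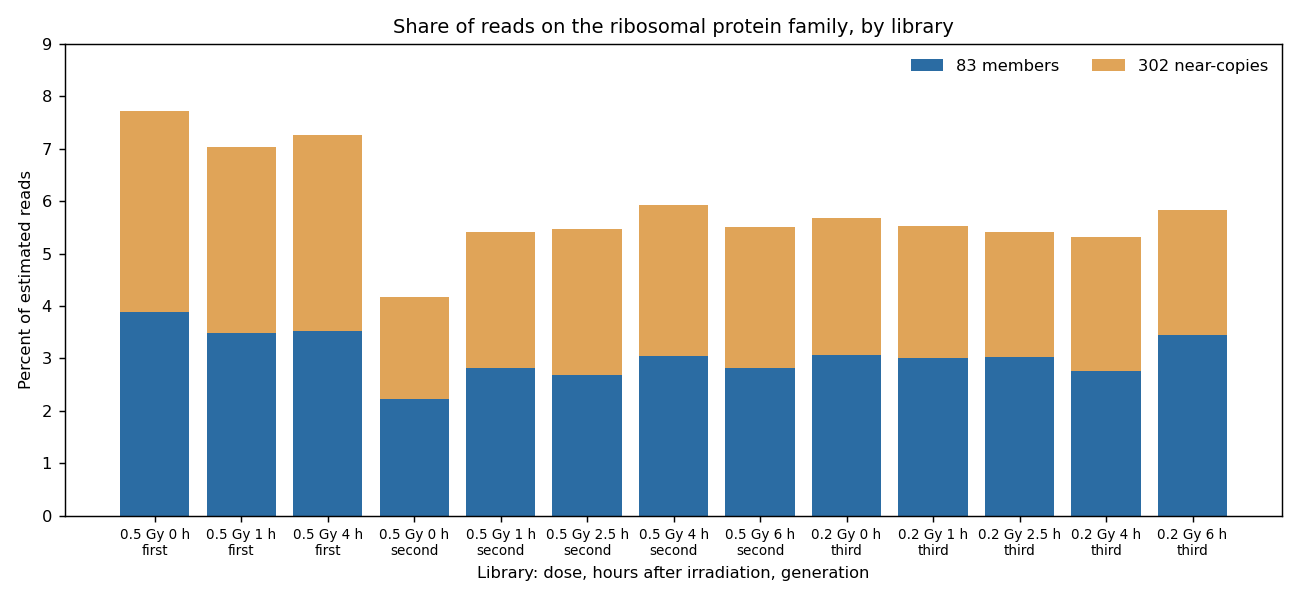
Percent of reads (y axis, from 0) in each of the 13 libraries, as stacked bars of the ribosomal protein genes and their near-copies, ordered by dose, generation and time. The first-generation libraries, at 7.04% to 7.73% in all, lie above all the others, which reach at most 5.93%.

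Gene by gene, 75 of the 83 members were estimated lower in the second generation, with a median log2 fold change of -0.35 beside -0.01 for all 24636 genes tested, and with copies 82 of 83 were lower, with a median of -0.50. None was called by edgeR's quasi-likelihood test, where called means an adjusted p under 0.05 with an absolute log2 fold change over 1, and 0.0365% of all genes were. At an unadjusted p under 0.05, 33 members were lower and 1 higher, where 4.5% of all genes were lower. With copies 54 were lower and none higher, against 4.48% of all genes. DESeq2 gave 33 lower and 1 higher member at that p and limma 21 and 2. Without a filter on low counts, 25 members passed edgeR's adjusted p under 0.05 at any fold, where 1.46% of all genes did.

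The abundant members with few or no copies showed this most simply. Their reads are not all unique, since genes that are not near-copies can share parts of their sequence. Of the 30-base sequences of Rps4x 45.6% occur in other genes, of Rpl18 19.9%, of Rps21 18.5% and of Rps3 4.04%. The median over the members was 27.0%. Rpl18 stood at 543, 542 and 545 CPM at 0, 1 and 4 h in the first generation and at 175, 362 and 432 CPM in the second (log2 fold change -0.83, SE 0.26, edgeR adjusted p = 0.41). Rps3, which has no near-copy, stood at 1300, 1240 and 1241 CPM against 602, 877 and 1050 CPM (-0.60, SE 0.19, adjusted p = 0.43). Every first-generation value of either gene lies above every second-generation value, and in both the gap was widest at 0 h. Rps21, a small 40S protein, stood at 251, 201 and 212 CPM against 137, 154 and 122 CPM (-0.68, SE 0.18, adjusted p = 0.35), a gap that was as wide at 4 h as at 0 h. Rps4x, the X-linked S4 protein, was at 1447, 1403 and 1255 CPM in the first generation and at 897, 912 and 994 CPM in the second (-0.54, SE 0.15, adjusted p = 0.38). In all, 36 members lay below the first generation in all 3 second-generation libraries with no overlap and 67 did with copies, where 8.499% of all genes did.

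Adding copies brought other members to the same difference. Rps27 was at -0.56 (SE 0.26, edgeR adjusted p = 0.53) alone and at -0.70 (SE 0.17, adjusted p = 0.33) with its 2 copies, and for Rpl10 the values were 0.23 (SE 0.17) and -0.37 (SE 0.17). Of the 5S particle, Rpl5 was at -0.68 (SE 0.20) alone and -0.60 (SE 0.15) with copies, and Rpl11 at -0.31 (SE 0.19) and -0.63 (SE 0.18), each with an adjusted p of at least 0.35. With copies, these 4 members lay between -0.37 and -0.70.

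Rps2 was the exception, and the only member that any fit called between generations. Alone, it stood at 81.0, 37.4 and 84.7 CPM at 0, 1 and 4 h in the first generation and at 197, 293 and 183 CPM in the second (1.78, SE 0.36, edgeR adjusted p = 0.27). Its pseudogene Rps2-ps13, whose first bases are printed above, was at 53.7, 562 and 151 RPM (reads scaled to library total only) at these times in the first generation and at 0, 4.06 and 218 RPM in the second. With its 17 copies Rps2 stood at 417, 676 and 461 CPM against 412, 533 and 638 CPM, a log2 difference of 0.05 (SE 0.19) in which the groups overlap. Rps2 alone was called without the filter on low counts (1.77, edgeR adjusted p = 1.8e-13) and by DESeq2 (1.44, adjusted p = 1.3e-05). It was also called without either 0 h library or either 4 h library, and in no fit with copies added. The fits that called it also called more genes of all kinds than the edgeR fit above (9 of 24636). These were 462 of 45532 without the filter, 175 of 49509 by DESeq2, and 83 to 165 genes without a 0 h or 4 h library.

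The difference between generations was uneven over time. The median log2 difference of the members at 0, 1 and 4 h was -0.79, -0.35 and -0.07, and with copies -0.85, -0.42 and -0.24. At all 3 times 47 members were lower, and 72 with copies, where 16.7% of all genes were lower at all 3. The count of members lower at an unadjusted p under 0.05 was 17 or 18 without either 0 h library, 25 or 26 without either 1 h library and 38 without either 4 h library. With copies these counts were 31 or 32, 36 and 65. The 0 h pair thus carried the widest gap. Its second-generation library is the one with 428.6 RPM of granulocyte markers and the lowest share of ribosomal protein reads. The part of those cells in the result was not tested. The difference at 1 and 4 h is between libraries with 10.6 to 15.0 RPM of these markers.

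Other genes of translation went the same way in part. Of the 4 ribosomal proteins outside the symbol rule, all were lower in the second generation: Fau, which encodes the 40S protein S30, at -2.44 (SE 0.31, edgeR adjusted p = 0.070), Rack1 at -0.43 (SE 0.18) and Rpl36al at -0.16 among them. Of 78 mitochondrial ribosomal protein genes, 64 were lower, with a median of -0.29 and 16 lower and 3 higher at an unadjusted p under 0.05. All 7 snoRNA host genes with TOP starts were lower (median -0.50, 4 of them at that p), as were 12 of 17 other TOP mRNAs of translation (median -0.19, 6 at that p, among them Btf3, Eef1b2 and Eif3f). Of 55 ribosome biogenesis genes only 20 were lower (median 0.06), and of 20 genes of mTORC1 and LARP1 control 11 were. None of these was called. Near-copies were sought only for the members. The values of these other genes, that of Fau included, were therefore not tested with copies added, here or in the time course below. The sum of oocyte markers was 3568 to 4374 RPM in the first generation and 4198 to 5007 RPM in the second. For granulosa markers it was 2226 to 2820 and 2279 to 2926 RPM. For red blood cell markers it was 2217 to 5923 and 2985 to 5808 RPM. Their part in the difference was not tested.

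The second question was the time course at 0.5 Gy, where 2.5, 4 and 6 h (late) were set against 0 and 1 h (early), 4 libraries each. Of the 82 members that passed the filter on low counts (Rpl3l did not), 64 were estimated lower late, with a median log2 fold change of -0.20 beside -0.02 for all genes. With copies 62 were lower, with a median of -0.10. Of the 4 late libraries 3 are labelled second generation, against 2 of the 4 early ones. With generation as a term 47 were lower and 35 higher (median -0.08), and with copies as well the balance turned to 29 lower and 53 higher (median 0.05). edgeR called 0 members with or without that term, and 0.129% of all genes without it. At an unadjusted p under 0.05, 18 members were lower and none higher, against 4.29% of all genes, and DESeq2 gave 17 lower and limma 16 lower and 1 higher. With copies 3 were lower, against 4.33% of all genes. The count of 18 became 7 without the first-generation 0 h library, 10 without the 2.5 h library and 8 without the 6 h library.

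The members with the largest estimated differences were mostly those with copies. Rpl26, a 60S protein that binds p53 mRNA in other cells, stood at 115 and 182 CPM at 0 h, 244 and 72.0 CPM at 1 h and 62.6 to 79.3 CPM late (-1.15, SE 0.30, edgeR adjusted p = 0.29), so that 1 early library lay within the late range. With its 3 copies the difference was -0.07 (SE 0.18). Rps29, a small 40S protein, stood at 139 to 215 CPM early and 80.7 to 111 CPM late with no overlap (-0.73, SE 0.18, adjusted p = 0.23), and at -0.39 (SE 0.21) with copies. DESeq2 gave Rps29 an adjusted p of 0.045 at -0.66, short of the fold required for a call. For Rps2, Rpl21 and Rps12 the values were -0.98, -0.78 and -0.74 alone and 0.04, -0.08 and -0.16 with copies.

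Of the largest estimates upward, none reached an unadjusted p under 0.05. Among them were Rps27 at 0.43 (SE 0.26), Rpl35 at 0.38 (SE 0.32), Rps27l at 0.19 (SE 0.16) and Rpl8 at 0.14 (SE 0.26). With copies Rps27 was at -0.24, on the other side of 0. The 5S particle proteins, counted alone, stood at -0.15 (SE 0.26) for Rpl5 and -0.25 (SE 0.18) for Rpl11. The estimates of Rpl5, Rpl11 and Rpl35 alone leave out the 96.8%, 78.8% and 81.8% of their families' reads that lay on copies. The substrate of S6 kinase, Rps6, stood at -0.38 (SE 0.16, edgeR adjusted p = 0.50) alone and -0.06 (SE 0.18) with copies. The abundant members Rpl13a (0.05), Rps19 (0.11), Rps14 (-0.01) and Rps3 (0.03) had estimates near 0.

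**Figure D3:**
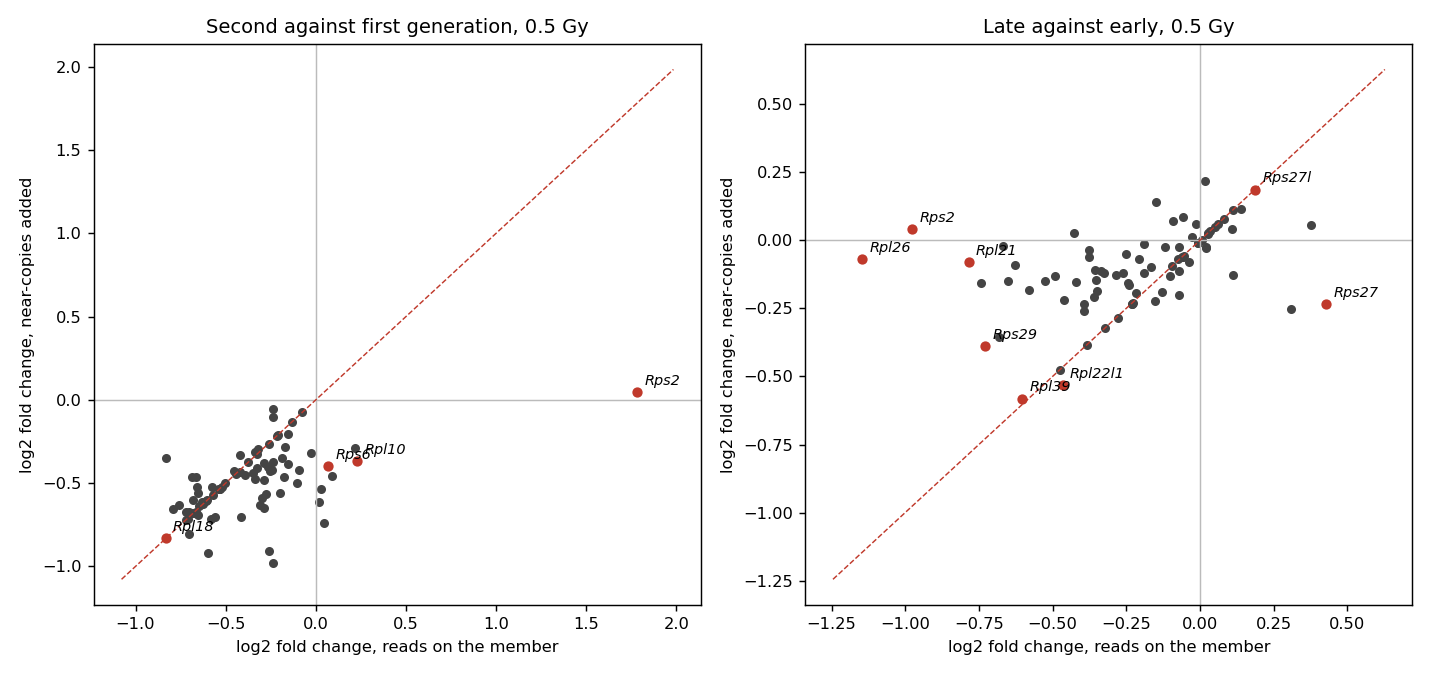
Log2 fold change of each ribosomal protein gene with near-copies added (y axis) against that of the member alone (x axis), for second against first generation (left) and late against early (right) at 0.5 Gy, with 1 point per gene and a dashed line where both are equal. Rps2 and Rpl26 lie far out along the x axis and near 0 on the y axis, and for the generations nearly all points lie below 0.

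The 3 members that edgeR gave as lower with copies at an unadjusted p under 0.05 were all of the large subunit, where 4.33% of all genes were lower. One of them, Rpl37, has no near-copy, so adding copies could not change its reads. Rpl39, a small protein of the exit tunnel, stood with copies at 409.6 and 304 CPM in the 0 h duplicates and 311 and 260 CPM in those of 1 h, and late at 182 to 267 CPM, lowest at 6 h (-0.58, SE 0.18, edgeR adjusted p = 0.37). Rpl22l1, the paralogue of Rpl22, stood with copies at 169 to 267 CPM early and 146 to 168 CPM late (-0.53, SE 0.17, adjusted p = 0.39), so the groups did not overlap by a narrow margin. Rpl37, a zinc-binding 60S protein with no near-copy, stood at 118 to 181 CPM early and 78.6 to 119 CPM late (-0.47, SE 0.19, adjusted p = 0.49), and the groups overlapped slightly. Only 3 members lay below the early libraries in all 4 late ones when counted alone, and 1 with copies, where 1.996% of all genes did.

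Against 0 h alone, the 4 later times in order gave the members medians of -0.02, -0.35, -0.01 and -0.35. With copies these were 0.06, -0.20, 0.11 and -0.24, with 62 of 83 members higher at 4 h. With its filter on low counts, edgeR called no member at any of these times, and no other gene either (0% in each). DESeq2 also called no member, but it called 22 and 124 of 49509 genes at 1 and 4 h. Without the filter edgeR called no member, and 30 and 84 of 46348 genes at 1 and 4 h. At an unadjusted p under 0.05, edgeR gave 0, 10, 4 and 6 lower members and none higher, where 2.59%, 2.4% and 2.33% of all genes were lower at 2.5, 4 and 6 h, DESeq2 gave 1, 12, 5 and 12 lower and limma 1, 7, 6 and 5, with 1 higher at 2.5 h by limma. The low medians are those of the times with a second-generation library only, and 0 h has both generations. Within the second generation, where all 5 times have a library, the medians from 0 h were 0.20, 0.04, 0.28 and -0.02 at 1, 2.5, 4 and 6 h, and within the first generation -0.21 and -0.36 at 1 and 4 h. With copies they were 0.32, 0.27, 0.40 and 0.18, and -0.14 and -0.18. The sign of these medians thus depended on which 0 h library was the baseline, and without the first-generation or without the second-generation 0 h library the median at 1 h was 0.33 or -0.33. Without the first-generation 0 h library 23, 9, 26 and 8 members were higher at 1, 2.5, 4 and 6 h and 0, 6, 0 and 4 lower, where 4.19%, 4.29%, 5.37% and 4.79% of all genes were higher. At 2.5, 4 and 6 h the medians were 0.04, 0.31 and 0.006 without the first-generation 0 h library. Without the second-generation one they were -0.64, -0.34 and -0.65.

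**Figure D4:**
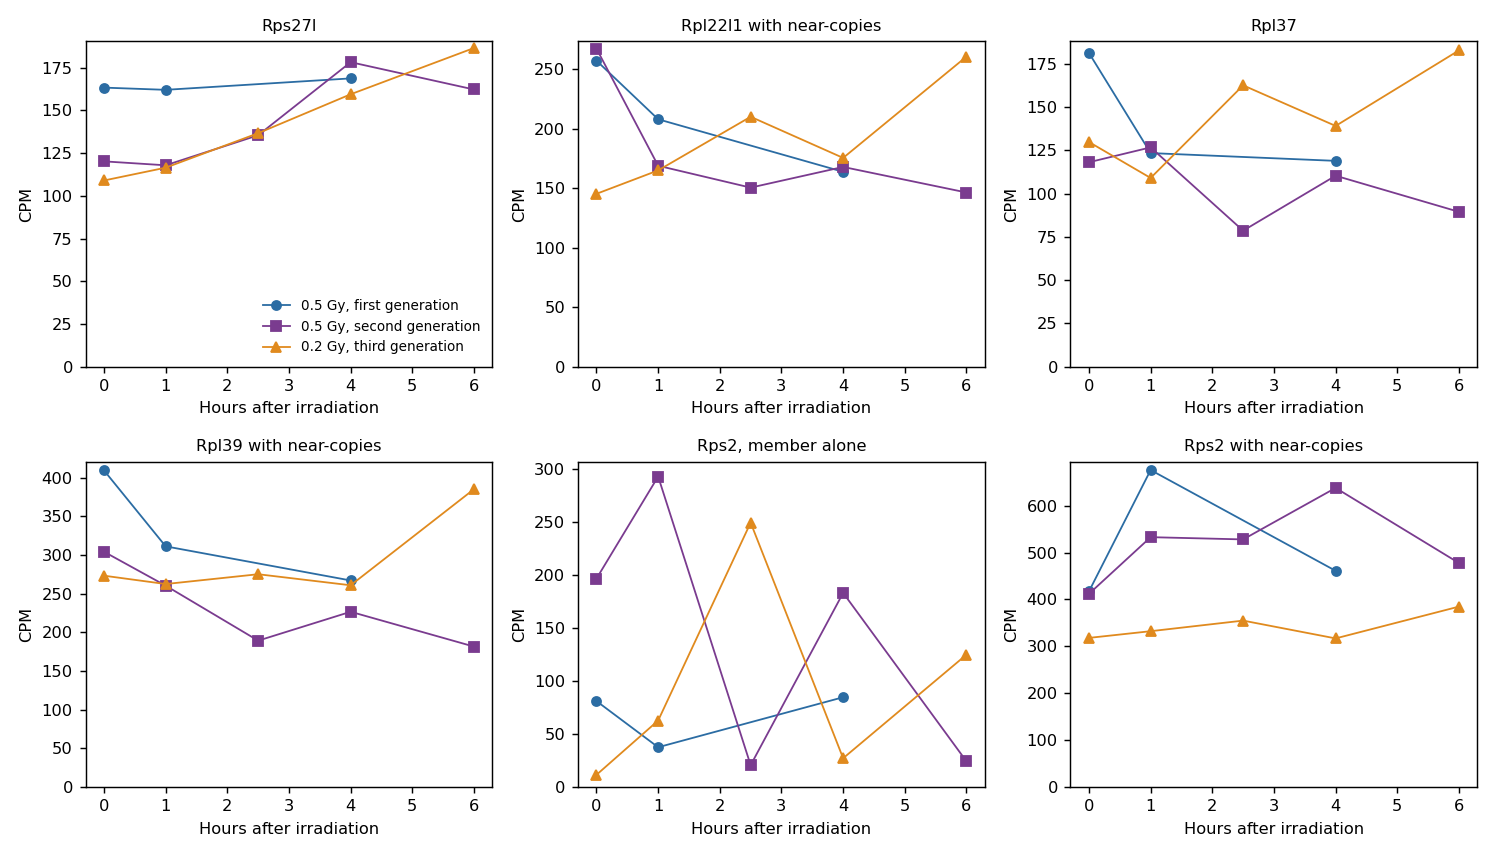
Levels of 5 ribosomal protein genes, Rps2 both alone and with near-copies, in each library (y axis, CPM from 0) against hours after irradiation (x axis), with 1 line for each generation. Rps27l ends at 187 CPM in the third generation, Rpl22l1, Rpl37 and Rpl39 are highest there at 6 h and lower in the late 0.5 Gy libraries, and the swings of Rps2 alone are smaller in proportion once copies are added.

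Genes around the ribosome did differ late at 0.5 Gy in 1 case. Of the 20 genes of mTORC1 and LARP1 control, Sesn2, a stress-induced inhibitor of mTORC1, was called at 2.48 (SE 0.36, edgeR adjusted p = 0.025), and Ddit4 and Rps6kb2 were at 0.83 and 0.68 with an adjusted p of 0.50 and 0.45. At 0.2 Gy Sesn2 was at 2.51 (SE 0.53, adjusted p = 0.23). Of 55 ribosome biogenesis genes 37 were higher, with a median of 0.11 and 6 at an unadjusted p under 0.05, among them Nle1 at 1.04 (SE 0.21, adjusted p = 0.12) and Nop2 at 0.56 (SE 0.17). All 7 snoRNA host genes were lower, Gas5 at -0.42 (SE 0.14). Of 78 mitochondrial ribosomal protein genes 41 were lower (median -0.03), and 9 of 17 other TOP mRNAs were higher, with Eef2 at 0.54 and Tpt1 at -0.46.

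At 0.2 Gy the estimates lay on the other side of 0. The share of reads on the members was 3.06%, 3.01%, 3.03%, 2.77% and 3.45% from 0 to 6 h, and with copies 5.68%, 5.52%, 5.42%, 5.31% and 5.83%. Set against 0 and 1 h, the 4 and 6 h libraries gave a median log2 fold change of 0.21, with 71 of 83 members higher, and with copies 0.16 with 74 higher. No member was called by edgeR, DESeq2 or limma, and 0.0462% of all genes were by edgeR. At an unadjusted p under 0.05, 3 members were higher (Rps27l, Rpl27 and Rps27a) and 1 lower (Rpl28), where 3.04% of all genes were higher. With copies only Rps27l was higher, against 3.07%. DESeq2 gave 7 higher and limma 4 higher and 1 lower. With generation as a term at 0.5 Gy, which changes only the spread here, 9 were higher and 1 lower (3.99% of all genes higher), and with copies 5 and 1 (4.04%). Counted alone, the direction rested on the 6 h library: without it the median was -0.09, with 1 member higher and 6 lower at that p. With copies and without that library the median stayed above 0, at 0.09, with 61 of 83 members higher and none past that p. Without the 4 h library the median was 0.48, with 20 higher, and with copies 0.26, with 2. The count of 3 was 1 without the 0 h or 1 h library of 0.2 Gy, and it ranged from 2 to 9 when a 0.5 Gy library was left out. The 6 h library also had the smallest share of family reads on copies, 40.9%.

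Rps27l, which has no near-copy and can be told from Rps27 by its sequence, was the member with the smallest p at this dose. It stood at 109, 116.5, 137, 159.5 and 187 CPM over the 5 times at 0.2 Gy (0.61, SE 0.21, edgeR adjusted p = 0.64 for 4 and 6 h against 0 and 1 h), each time above the one before. At 0.5 Gy it stood at 163, 162 and 169 CPM at 0, 1 and 4 h in the first generation and at 120, 118, 135.5, 178 and 162 CPM over the 5 times in the second. In the second and also in the third generation the 4 and 6 h libraries lay above those of 0 and 1 h, and in the first the 3 values were nearly level. Such an order was common at 0.2 Gy, where 2 libraries were set against 2. There 30 members lay above without overlap (51 with copies) and 5 below (4 with copies). Of all genes 19.55% lay above and 27.1% below. For Rps27l the late against early difference at 0.5 Gy was 0.19 (SE 0.16, adjusted p = 0.76), and the difference between doses was 0.34 (SE 0.26, adjusted p = 0.75). Rps27 with its copies stood at 735 to 768 CPM at 0 and 1 h and at 834 and 994 CPM at 4 and 6 h of the 0.2 Gy series (0.27, edgeR adjusted p = 0.88).

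The difference between doses in late against early expression, an interaction term over 11 libraries, was tested next. Its median over the members was 0.36 beside -0.05 for all genes, and 69 of 83 were above 0. With copies the median was 0.21. edgeR called no member and 0.032% of all genes, and neither DESeq2 nor limma called one. At an unadjusted p under 0.05, 11 members were higher, where 4.21% of all genes were, DESeq2 gave 14 higher and limma 6 higher and 1 lower, and with copies 3 were higher, where 4.27% of all genes were. Those 3 were again Rpl22l1 (0.98, SE 0.31, edgeR adjusted p = 0.53), Rpl37 (0.79, SE 0.31, adjusted p = 0.56) and Rpl39 (0.78, SE 0.32, adjusted p = 0.57). At 0.2 Gy Rpl22l1 with copies stood at 145, 165, 210.1, 175.5 and 261 CPM and Rpl37 at 130, 109, 163, 139 and 183 CPM over the 5 times, with the highest value at 6 h for both. This comparison shares its 0.5 Gy libraries with the one above. The count of 11 became 2, with a median of 0.03, without the 6 h library of 0.2 Gy, and 27 without its 4 h library. It was 5 without the 0 h or the 1 h library of 0.2 Gy and 3 without the 6 h library of 0.5 Gy.

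Finally, the early libraries of 0.2 Gy were set against those of 0.5 Gy, which compares the third generation with the first and second. The 0 h library of each series is among them. The median of the members was -0.22 and 60 of 83 were lower, and with copies the median was -0.32 and 80 were lower. edgeR called no member and 0.124% of all genes, and limma called none. DESeq2 called 398 of 49509 genes, and Rpl27, a 60S protein, was the only member among them (-1.01, adjusted p = 0.0018). At an unadjusted p under 0.05, 14 members were lower and 3 higher, where 7.01% of all genes were lower, and with copies 10 were lower and none higher, against 7.08%. DESeq2 gave 18 lower and 1 higher, whereas limma gave 8 lower and 6 higher, with 43 members below 0, 39 above and a median of -0.01. With a term for the second generation, which sets 0.2 Gy against the first-generation level of 0.5 Gy, 33 members were lower and 1 higher at that p (9.12% of all genes lower), and edgeR called 4 members and 0.963% of all genes. With copies as well 66 were lower and none higher (9.23% of all genes lower), and 1 was called. Rpl27 stood at 67.1 and 59.9 CPM in the 0 and 1 h libraries of the 0.2 Gy series and at 107 to 178 CPM in those of the 0.5 Gy series (-1.05, SE 0.23, edgeR adjusted p = 0.12), and with its 4 copies at 258 and 224 CPM against 265 to 474 CPM (-0.59, SE 0.22). Rps29 lay the other way alone (0.69, SE 0.28) and at -0.34 (SE 0.25) with copies. Of 11 fits that left out 1 library each, the count of 14 became 6 and 4 without the 0 h and 1 h libraries of 0.2 Gy, 6 and 25 without the first-generation and the second-generation 0 h library of 0.5 Gy, and 9 without its first-generation 1 h or second-generation 4 h library. With copies the count of 10 became 3 and 0 without the 0 h and 1 h libraries of 0.2 Gy, 3 and 44 without the first-generation and the second-generation 0 h library of 0.5 Gy, and 4 and 16 without its first-generation and second-generation 1 h library. A share of reads of 5.52% and 5.68% with copies placed the early third-generation libraries between the 0.5 Gy libraries of the first generation (7.04% and 7.73%) and those of the second (4.18% and 5.41%).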

How the data were processed

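The libraries were made from pooled oocytes with the PicoPure RNA kit and the SMARTer cDNA kit and sequenced as 30-base read pairs with no strand stated. The authors quantified transcripts of GRCm38 with salmon and deposited, for each transcript and library, estimated counts and TPM. Tables of the authors' merged normalised counts and of their own comparisons (fold changes and p-values) were not used. Here the estimated counts and TPM the authors deposited were summed per gene with the GENCODE annotation given for this work. At most 0.527% of reads in a library lay on transcripts without a gene there, and these were left out. Sums were rounded and tested with the quasi-likelihood test of edgeR 4.0.16 (TMM scaling, filterByExpr, R 4.3.3), with Benjamini-Hochberg adjustment over all genes tested. Members were called where the adjusted p was under 0.05 and the log2 fold change beyond 1 in either direction. The design was late (2.5, 4 and 6 h) against early (0 and 1 h) and each time against 0 h over the 8 libraries of 0.5 Gy, late (4 and 6 h) against early in each dose and their difference over 11 libraries, and generation with time as a term over 6. Single libraries took their spread from the others of the fit. DESeq2 1.42.0 (with the fold-change prior), limma 3.58.1 on log2(TPM + 1) for genes with a mean TPM of at least 1, other scaling and filters, a generation term and leaving out each library were alternatives.

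Near-copies were annotated genes other than small RNAs with at least 50% of their 30-base sequences in a member. This step, and the stricter 80%, was chosen after seeing the data. In fits with copies the copies' reads were added to the member. Log2 differences between single libraries used CPM + 1. Shares and per-library values are descriptions, and the number of reads bounds counting error only. The labels do not say that duplicates came from separate animals, so p-values measure the spread between these samples. Members, lists and comparisons were chosen with earlier results of these data known. Named members were the paralogue pairs, a short list by function (5S particle, stalk, Rpl26, Rpl23, Rpsa, Rps3, Rps6, Rps14, Rps19 and Rpl13a), the 5 highest and 5 lowest in TPM, the 5 largest differences each way late against early at 0.5 Gy with a mean of at least 10 CPM, and any called member. Some genes that this rule names are not reported here. Others (Rpl17, Rpl37, Rps21, Rps4x and those named by smallest p) were chosen after their values were seen. Sequences were read from the genome of GRCm38 and from RefSeq's promoter table of GRCm38.p6. The fits were tested on simulated data with a set spread, in which 200 genes per comparison changed by 1.5 on the log2 scale. Of these, 196 were called late against early at 0.5 Gy and 188 between generations. Only 91 were called at 2.5 h, 90 at 6 h and 74 for the difference between doses. Most changes of this size were thus missed there, and the absence of calls in those comparisons says little.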

Additional observations from a re-analysis of the deposited data

How the results depend on the processing

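Of the counts of called members and the medians, 367 alternative values stayed within the limits set (1.5 times the count, or 0.278 on the log2 scale for a median, the spread between duplicates) and 32 did not. Near-copies, alone or with another change, were added after seeing the data. Between generations 1 member (Rps2) was called with no filter and by DESeq2, and leaving out 1 library gave 0 to 1. For early 0.2 against 0.5 Gy, DESeq2 called 1 member (Rpl27), the replicate block (generation as a term) 4 (Rps26, Rpl37a, Rpl5 and Rpl27) and near-copies with the block 1. The block changed no other call. With near-copies and the replicate block the medians were 0.11 at 2.5 h, 0.016 at 6 h and -0.56 for early 0.2 against 0.5 Gy. The labels tie the numbers to a generation without saying what it shares, and for 1 and 4 h the generation is uncertain. The pairing behind the block was therefore not established. As a hint from the data, deviations of same-numbered samples correlated at 0.113, 0.072 and 0.100 over all genes. Over the members they correlated at 0.287, 0.354 and 0.398 (0.202 to 0.408 with copies). All 6 of 6 samples correlated best with their own number. With 2 samples at each time the deviations mirror each other, so this count follows from the positive correlations and adds nothing to them.

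Leaving out 1 library gave medians of -0.33 to 0.33 at 1 h, -0.64 to 0.042 at 2.5 h, -0.34 to 0.31 at 4 h and -0.65 to 0.0063 at 6 h, each end without 1 of the 0 h libraries, -0.086 to 0.48 for late against early at 0.2 Gy and 0.035 to 0.46 for the difference between doses. With near-copies the values beyond the limit were -0.31, 0.26 and 0.51 at 1 h, 0.28 at 2.5 h, 0.56 at 4 h, 0.20 at 6 h, 0.078 for the difference between doses and -0.65 and -0.64 for the generations. The mean share of reads was 5.87% with near-copies.

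For single members late against early at 0.5 Gy, 337 values kept their side and 20 reversed. With near-copies these were Rps2 (0.040) and Rps27 (-0.24, and -0.32 at 80%), and with named pseudogenes Rps2 (0.038). With the replicate block they were Rpl22 (0.0025) and Rpl5 (0.033), and with near-copies as well Rpl22 (0.0010), Rpl21 (0.022), Rps2 (0.043), Rpl11 (0.14), Rpl26 (0.053) and Rps27 (-0.037). With limma they were Rpl10 (0.035) and Rpl5 (0.0099). Leaving out 1 library at a time gave -0.32 to 0.10 for Rpl5, -0.084 to 0.31 for Rpl8, -0.11 to 0.15 for Rpl3 and -0.12 to 0.0082 for Rpl22. The cause was not tested for any of these beyond the added reads. Reads of 30 bases limit what can be said of the members with near-copies.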
